A study of Mus musculus with 20 samples.

Results

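The 5 genes described here, *Fam19a2*, *1700026D08Rik*, *Mybpc2*, *Sec14l4* and *Rgs8*, had the largest decreases called in the cochlea of Bai1tm2b/tm2b mice at postnatal day (P) 22, out of 24411 genes in the count tables. They were picked by that comparison, so their P22 genotype values are given as a description with no test. Their values at P7, and the genes related to them, did not enter the choice.

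RNA was sequenced from the apical coil of the cochlea, dissected as sensory epithelium with spiral ganglion neurons (SGNs), in 20 libraries. At P22 there were 3 Bai1tm2b/+ and 3 Bai1tm2b/tm2b libraries, and at P7 there were 7 of each. The labels give P7 batches of 3 and 4 per genotype, and the deposited unit splits the P7 libraries in the same numbers (replicates 5 to 7 and 1 to 4). Each library was a pool of tissue from 4 mice by the labels and methods (3 to 4 in another note of the study on the P7 libraries), so the spread between libraries is a spread between pools. The mice were of both sexes on a C57BL/6N background, and both genotypes carry the tm2b allele of *Adgrb1*, the gene of the adhesion receptor BAI1. The tm2b allele lacks exons 3 and 4, and transcripts from the *Adgrb1* promoter are spliced into a lacZ reporter instead. The Bai1tm2b/+ controls are heterozygous littermates with 1 such allele, and no wild-type library is among those analysed here. The study asked how loss of the long form of BAI1 alters the cochlear transcriptome before and after the onset of hearing. The deposited values were estimated counts for the P22 libraries (totals of 35725985 to 40350413) and for P7 replicates 5 to 7 (totals of 31108551 to 58807173), and values that look like TPM (transcripts scaled to a fixed total per library) rounded to whole numbers for P7 replicates 1 to 4, whose depth is unknown. Summed over its transcripts, *Adgrb1* had 90.8 to 95.8 CPM (counts scaled to a fixed library total, for differences in depth) in the P22 Bai1tm2b/tm2b libraries and 137 to 151 CPM in the Bai1tm2b/+ libraries. Its P7 ranges were 23.8 to 34.3 against 35.5 to 61.5 CPM in replicates 5 to 7, and 9 to 12 against 7 to 12 TPM in replicates 1 to 4. The TPM ranges overlapped. Transcripts that start after the deleted exons are part of these sums, so they check the labels only in part. P22 Bai1tm2b/+ library 2 stood apart in *Dct*, a melanocyte gene, with 240 CPM against 0.835 to 1.80 CPM in the other 5 libraries, and values without it are given where they matter.

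SGNs are the bipolar neurons that carry the output of the hair cells to the brainstem. Between the first postnatal week and the fourth the cochlea passes from spontaneous, hair cell driven activity to responses to sound, and many neuronal and hair cell genes change their level. The 5 genes belong to different families. *Fam19a2*, now *Tafa2*, encodes a small secreted protein of the TAFA family, whose members are made mostly in the nervous system. *Rgs8* encodes a regulator of G protein signaling of the R4 type, which speeds the hydrolysis of GTP by the alpha subunits of the Gi and Go class and so shortens signals such as the opening of GIRK potassium channels. *Mybpc2* encodes the fast skeletal form of myosin-binding protein C, which sits on the thick filament of striated muscle and binds myosin and titin. *Sec14l4* encodes a SEC14-like protein of the CRAL-TRIO class, whose members bind lipids. *1700026D08Rik* is listed by RefSeq as *Cfap161*, a gene of the cilia and flagella associated proteins found in the axoneme of motile cilia.

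In GRCm38 (mm10) with the GENCODE annotation all 5 were protein-coding genes, and none shared the chromosome of *Adgrb1*, chromosome 15. *Fam19a2* (ENSMUSG00000044071.8) runs on the plus strand of chromosome 10 from 123263996 to 123741204, and *Rgs8* (ENSMUSG00000042671.12) on the plus strand of chromosome 1 from 153653025 to 153700323. *1700026D08Rik* (ENSMUSG00000011154.17) and *Mybpc2* (ENSMUSG00000038670.11) both lie on the minus strand of chromosome 7, from 83774101 to 83794880 and from 44501699 to 44524656. *Sec14l4* (ENSMUSG00000019368.13) runs on the plus strand of chromosome 11 from 4031462 to 4048024. Of the exon bases of *Mybpc2*, 5.32% overlap *Gm44646* on the opposite strand, and of those of *Rgs8* 0.726% overlap *Gm29529*. Whether the counting used strand is not given in the sources used here, so reads in these overlaps cannot be assigned with certainty.

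Promoter sequence was matched in RefSeq (GRCm38.p6) for 4 of the 5 genes and is shown for 3 of them. Their counts at P22 fell in the same libraries because the genes were chosen so, which is no sign of a shared motif. The window of *1700026D08Rik* lies inside the RefSeq gene and is not shown. Each sequence ends at the base before the most upstream start annotated in GENCODE or RefSeq, and capitals mark an E-box, CANNTG, the site class of basic helix-loop-helix factors.
Fam19a2 (chr10:123263826-123263995, plus strand): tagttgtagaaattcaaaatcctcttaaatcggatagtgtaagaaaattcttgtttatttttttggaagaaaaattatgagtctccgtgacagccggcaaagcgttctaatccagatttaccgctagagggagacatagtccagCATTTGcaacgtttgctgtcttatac
Mybpc2 (chr7:44524716-44524919, minus strand): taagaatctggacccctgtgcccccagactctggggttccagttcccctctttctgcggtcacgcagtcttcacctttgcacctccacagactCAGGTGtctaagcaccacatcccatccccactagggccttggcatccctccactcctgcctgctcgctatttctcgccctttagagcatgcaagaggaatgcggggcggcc
Rgs8 (chr1:153652787-153652958, plus strand): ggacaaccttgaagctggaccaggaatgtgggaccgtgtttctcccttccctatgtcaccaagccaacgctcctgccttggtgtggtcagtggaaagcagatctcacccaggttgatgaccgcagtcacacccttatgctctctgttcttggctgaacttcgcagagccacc
*Fam19a2* held 1 E-box 26 bases before the end of its window and *Mybpc2* held 1 at 111 bases before the end, whereas *Rgs8* held 0. Of 32851 RefSeq promoter windows cut to the same lengths, 53.5%, 59.7% and 54.0% held an E-box. The cAMP response element TGACGTCA, its core TGACG and the TATA box TATAAA, each searched on both strands, had 0 matches in the 3 windows. In windows cut to the length for *Mybpc2* these 3 motifs, of which the core is part of the full element, were found in 0.868%, 13.1% and 9.30% of promoters. The 3 sequences thus shared none of the motifs searched.

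At P22 the counts of every one of the 5 genes in the 3 Bai1tm2b/tm2b libraries lay below those in the 3 Bai1tm2b/+ libraries, and the fitted decreases ran from 3.56-fold for *Rgs8* to 5.10-fold for *Fam19a2*. A gene was called when its adjusted p value in the quasi-likelihood test of edgeR was under 0.05, its log2 fold change was beyond 0.5 in either direction and its standard error (SE) was under 0.5. Of 15443 genes tested, 1.41% were called lower in Bai1tm2b/tm2b cochleae and 1.74% higher. In 17.9% all homozygous libraries lay below all heterozygous ones, and in 33.7% the groups did not overlap in either direction. Since the 5 genes were selected from these calls, these shares are background only. The calls comprised 269 genes higher and 218 lower, which became 4729 and 33 when libraries were scaled to neuron markers, a scaling that moved the median of all genes up by 0.41 on the log2 scale. They numbered 108 and 162 without Bai1tm2b/+ library 1, 160 and 125 without Bai1tm2b/+ library 3, and 117 and 165 without Bai1tm2b/tm2b library 2.

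**Figure D1:**
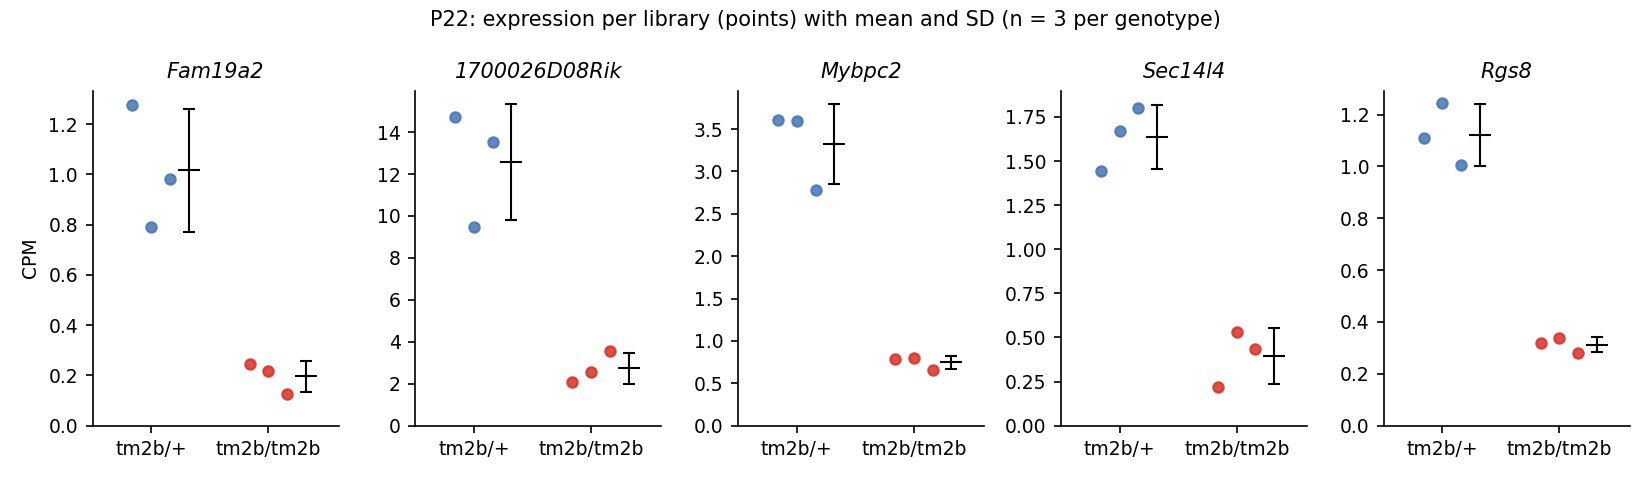
Expression of the 5 genes in each P22 library, in CPM on linear axes from 0, for Bai1tm2b/+ (blue) and Bai1tm2b/tm2b (red), with the mean and SD of 3 libraries in black. In each panel the 3 homozygous libraries lie below the 3 heterozygous ones, as in *Fam19a2*, whose highest homozygous library is at 0.245 CPM and lowest heterozygous one at 0.792 CPM.

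*Rgs8*, the G protein regulator, had 40, 44 and 38 counts in the 3 Bai1tm2b/+ libraries and 13, 14 and 11 in the 3 Bai1tm2b/tm2b libraries. Scaled to library size by the trimmed mean of M values (TMM), this was 1.12 CPM ± 0.119 (SD, n = 3) against 0.312 CPM ± 0.0292 (SD, n = 3). The libraries within each genotype were close together, and the log2 fold change was -1.83 (SE 0.325). Only 160 counts lay behind the 6 values, and the ratio of the summed counts, 0.279, had a 95% interval of 0.189 to 0.405 from counting error alone.

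*Fam19a2*, the secreted TAFA protein, had the fewest counts of the 5 at P22, with 46, 28 and 37 counts in Bai1tm2b/+ libraries and 10, 9 and 5 in Bai1tm2b/tm2b libraries. Its mean was 1.02 CPM ± 0.244 (SD, n = 3) against 0.196 CPM ± 0.0617 (SD, n = 3), a log2 fold change of -2.35 (SE 0.400). The ratio of summed counts was 0.194, with an interval of 0.119 to 0.303. With DESeq2 its log2 fold change was -2.37 with an SE of 0.556, past the SE limit, so that this tool did not call it. A prior count of 2 brought the log2 fold change to -2.10, and leaving out Bai1tm2b/tm2b library 3, with its 5 counts, brought it to -2.12.

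*Mybpc2*, the fast myosin-binding protein, had 130, 127 and 105 counts in Bai1tm2b/+ libraries and 32, 33 and 26 in Bai1tm2b/tm2b libraries. The means were 3.33 CPM ± 0.472 and 0.746 CPM ± 0.0745 (SD, n = 3 each), and the log2 fold change was -2.15 (SE 0.232). The lowest heterozygous library, at 2.78 CPM, was well above the highest homozygous one, at 0.793 CPM.

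*Sec14l4*, the SEC14-like lipid binder, had 52, 59 and 68 counts in Bai1tm2b/+ libraries and 9, 22 and 17 in Bai1tm2b/tm2b libraries. The means were 1.64 CPM ± 0.182 and 0.394 CPM ± 0.157 (SD, n = 3 each), and the log2 fold change was -2.05 (SE 0.347). Its homozygous libraries were the most uneven of the 5 genes, and without library 1, which held 9 counts, the log2 fold change was -1.76.

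*1700026D08Rik*, the ciliary gene *Cfap161*, was the most abundant of the 5 at P22, with 530, 335 and 511 counts in Bai1tm2b/+ libraries and 85, 106 and 140 in Bai1tm2b/tm2b libraries. The means were 12.6 CPM ± 2.74 and 2.73 CPM ± 0.752 (SD, n = 3 each), and the log2 fold change was -2.20 (SE 0.217). The low heterozygous value was that of library 2, and without that library the log2 fold change was -2.37. With 1707 counts behind it, the ratio of 0.216 had the narrowest interval of the 5, 0.191 to 0.243.

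Without Bai1tm2b/+ library 2, the library that stood apart, the other 4 genes had log2 fold changes of -2.50 (*Fam19a2*), -2.09 (*Mybpc2*), -2.03 (*Sec14l4*) and -1.75 (*Rgs8*). Just outside the 5, the next largest called decreases were those of *Art1*, an ADP-ribosyltransferase, *Rem2*, a small GTPase that inhibits calcium channels, and *Mafa*, a transcription factor. Their log2 fold changes were -1.72 (SE 0.306), -1.57 (SE 0.295) and -1.52 (SE 0.139). A further 19 tested genes had a larger fitted decrease than *Rgs8* and were not called, all with an SE of 0.5 or more. Of these, 4 had an adjusted p under 0.05, namely *Dct*, *Hs3st2* and the nicotinic receptor subunits *Chrnb3* and *Chrna6*, which are named here after their values were seen. *Chrnb3* ranged from 0.707 to 1.19 CPM in Bai1tm2b/+ libraries and from 0 to 0.120 CPM in Bai1tm2b/tm2b libraries. The 5 genes are therefore the largest decreases among called genes, and not among all genes tested.

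Other transcripts moved between the genotypes at P22 as well. The summed level of 12 neuron markers was 14092 to 16000 CPM in Bai1tm2b/+ libraries and 10598 to 12050 CPM in Bai1tm2b/tm2b libraries, with a median of -0.27. Of the 12, 1 was called lower (*Nefh*, -0.52), against 1.41% of all genes, and *Nefm* had -0.43. *Nefh* was not called with neuron scaling (-0.11) or without Bai1tm2b/+ library 3 or Bai1tm2b/tm2b library 2 (-0.47 and -0.46). The sum of 15 hair cell markers was 371 to 398 CPM against 498 to 599 CPM. Of the 15, 5 were called higher (*Espn*, 0.99, *Ocm*, 0.70, *Myo15*, 0.62, *Chrna10*, 0.58, and *Otof*, 0.54), against 1.74% of all genes. The study had named *Otof*, *Chrna10* and *Espn* as higher and listed *Nefh* as lower in these libraries. Neither marker list is therefore independent evidence of a direction. *Otof* was not called without Bai1tm2b/+ library 3 or Bai1tm2b/tm2b library 3, nor was *Myo15* without Bai1tm2b/+ library 2 or 3 or Bai1tm2b/tm2b library 2 or 3. Fewer cells of a type and less RNA per cell cannot be told apart in these pools, and the part of either in the values of the 5 genes was not tested. By immunolabeling of adult cochleae, outside these pools, the study found no significant genotype difference in the number of apical afferent fibers. It also found SGN cell bodies present in both genotypes. When libraries were scaled to the neuron markers the log2 fold changes were -1.94 for *Fam19a2*, -1.78 for *1700026D08Rik*, -1.75 for *Mybpc2*, -1.62 for *Sec14l4* and -1.43 for *Rgs8*.

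At P7 the libraries of the 2 genotypes were not separated in any of the 5 genes, in either set of libraries. In P7 replicates 5 to 7, 0 of 16026 genes tested were called by edgeR (763 had an unadjusted p under 0.05, and DESeq2 called 48), so the background of calls was 0%. In 4.64% of genes all homozygous libraries lay below all heterozygous ones, and in 10.4% the groups did not overlap in either direction. In replicates 1 to 4 these shares were 9.97% and 18.6% of 11740 genes. In both sets the genotype ranges of each of the 5 genes overlapped or were all 0.

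**Figure D2:**
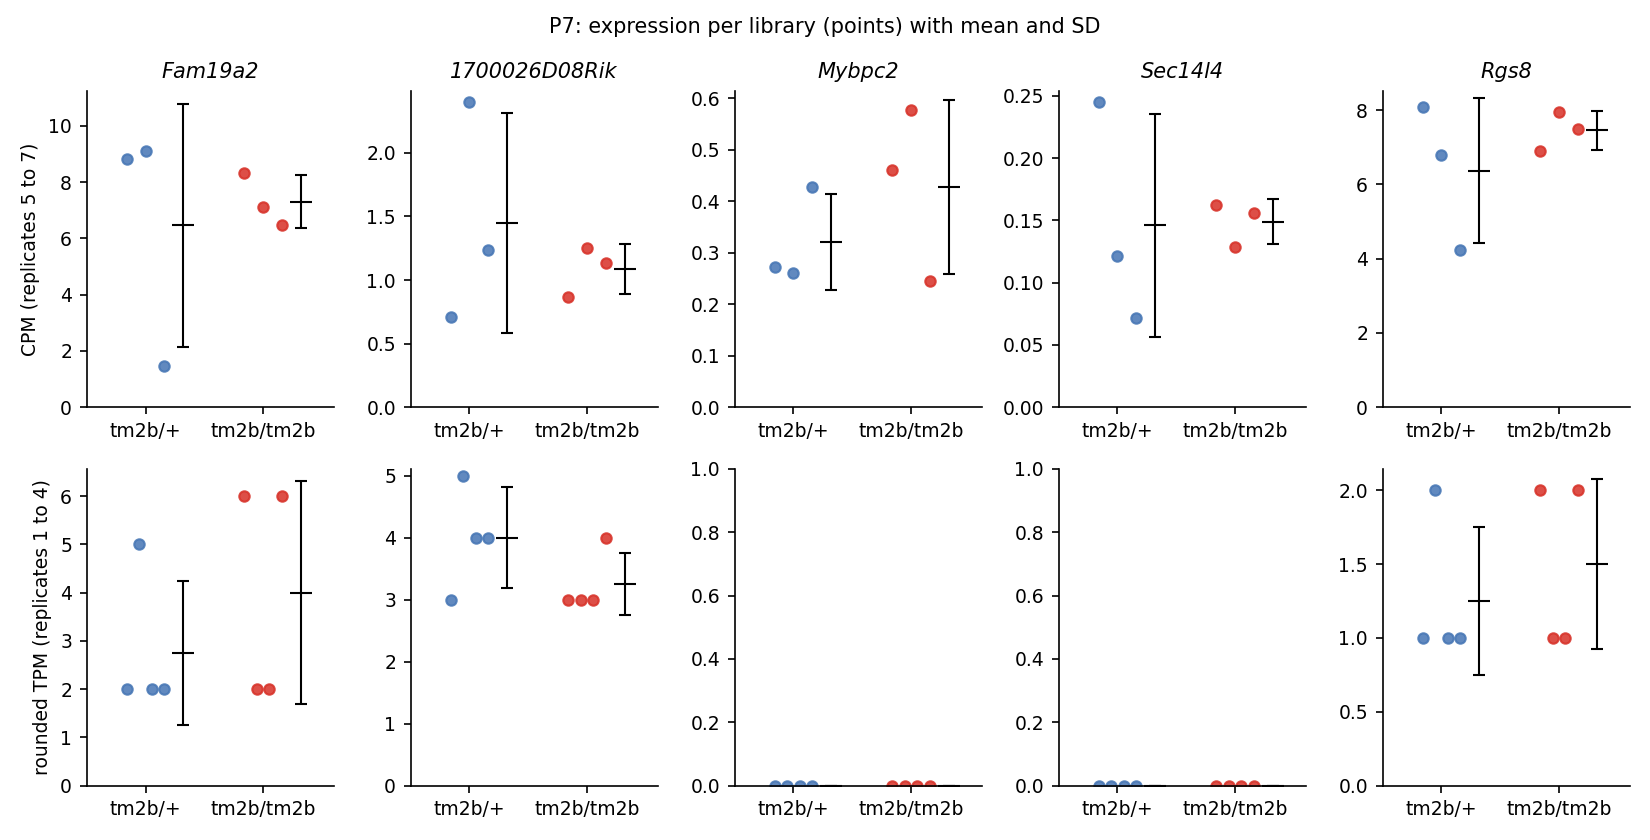
Expression of the 5 genes in each P7 library, for Bai1tm2b/+ (blue) and Bai1tm2b/tm2b (red), with mean and SD in black. The upper row gives CPM in replicates 5 to 7 (n = 3 per genotype) and the lower row rounded TPM in replicates 1 to 4 (n = 4 per genotype), where *Mybpc2* and *Sec14l4* are listed at 0 in all 8 libraries.

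*Rgs8* had 297, 390 and 178 counts in P7 Bai1tm2b/+ replicates 5, 6 and 7 and 255, 248 and 336 in the Bai1tm2b/tm2b replicates. The means were 6.37 CPM ± 1.96 and 7.45 CPM ± 0.529 (SD, n = 3 each), and heterozygous replicate 7 was the lowest. The log2 fold change was 0.23 (SE 0.232, adjusted p = 0.906, edgeR), and the exact permutation test gave p = 0.5 (2-sided, n = 3 each). In replicates 1 to 4 the rounded TPM were 1, 2, 1 and 1 against 2, 1, 1 and 2, with an exact permutation p of 1.

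*Fam19a2* had 324, 524 and 62 counts in the P7 Bai1tm2b/+ replicates and 308, 222 and 290 in the Bai1tm2b/tm2b replicates. The means were 6.47 CPM ± 4.33 and 7.31 CPM ± 0.952 (SD, n = 3 each), with the heterozygous spread set by replicate 7, at 1.48 CPM. The log2 fold change was 0.17 (SE 0.564, adjusted p = 0.969, edgeR) with an exact permutation p of 1, and without heterozygous replicate 7 it was -0.30. In replicates 1 to 4 the rounded TPM were 2, 5, 2 and 2 against 6, 2, 2 and 6, and the exact permutation p was 0.543 (2-sided, n = 4 each).

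*1700026D08Rik* had 26, 138 and 52 counts in the P7 Bai1tm2b/+ replicates and 32, 39 and 51 in the Bai1tm2b/tm2b replicates. The means were 1.45 CPM ± 0.866 and 1.09 CPM ± 0.198 (SD, n = 3 each). The log2 fold change was -0.44 (SE 0.446, adjusted p = 0.906, edgeR) with an exact permutation p of 0.8, and without heterozygous replicate 6, which held the 138 counts, it was 0.15. In replicates 1 to 4 the rounded TPM were 3, 5, 4 and 4 against 3, 3, 3 and 4. The log2 difference of TMM-scaled TPM plus 1 was -0.32, with an exact permutation p of 0.0571 and an adjusted value of 0.457 over the 8 exact tests made at P7. This was the smallest p of the 8, with 3 homozygous libraries at the lowest value listed. Without TMM scaling the difference was -0.23 and the exact permutation p was 0.371.

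*Mybpc2* and *Sec14l4* were close to the limit of detection at P7. *Mybpc2* had 10, 15 and 18 counts in Bai1tm2b/+ replicates and 17, 18 and 11 in Bai1tm2b/tm2b replicates, or 0.320 CPM ± 0.0937 against 0.428 CPM ± 0.169 (SD, n = 3 each). Its log2 fold change was 0.39 (SE 0.432, adjusted p = 0.909, edgeR), with an exact permutation p of 0.4. *Sec14l4* had 9, 7 and 3 counts against 6, 4 and 7 and did not pass the filter on low counts. The ratio of its scaled counts was 1.08, with a 95% interval from counting error of 0.527 to 2.19, and the exact permutation p was 0.9. The interval leaves out the spread between pools, and differences within it were not detectable at this depth. Both genes were listed at 0 in all 8 libraries of rounded TPM.

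The exact tests cannot go below p = 0.1 with 3 libraries against 3 or p = 0.0286 with 4 against 4. None of the 5 genes reached the mean of 5 TPM that the fit of replicates 1 to 4 required, where 0.767% of 11740 genes were called, with 0.596% of all 11740 called higher. These calls went from 90 to 334 without Bai1tm2b/tm2b replicate 1 and to 0 without any one of 6 other libraries (Bai1tm2b/+ replicates 2, 3 and 4 and Bai1tm2b/tm2b replicates 2, 3 and 4). When the minimum was lowered to 1 TPM and both P7 sets were fitted together with limma, the log2 differences were 0.33 (SE 0.309, adjusted p = 0.584) for *Fam19a2*, -0.26 (SE 0.138, adjusted p = 0.302) for *1700026D08Rik* and 0.14 (SE 0.144, adjusted p = 0.606) for *Rgs8*. Of these 14 libraries, 8 are in rounded TPM, in which low values are coarse.

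**Figure D3:**
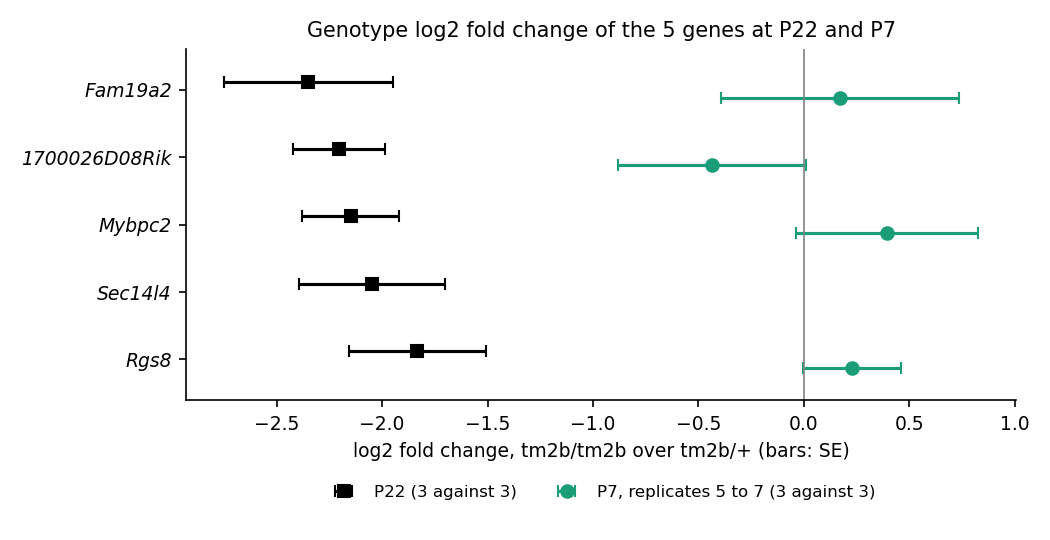
Log2 fold change of Bai1tm2b/tm2b over Bai1tm2b/+ for the 5 genes, with bars of 1 SE, at P22 (black squares) and in P7 replicates 5 to 7 (green circles), 3 libraries against 3 in each. The P22 values, which chose the genes, run from -2.35 to -1.83, and the P7 values run from -0.44 to 0.39 (*Sec14l4* did not pass the P7 filter).

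From P7 to P22 the 5 genes went 2 ways. *1700026D08Rik*, *Mybpc2* and *Sec14l4* were higher in the P22 libraries, and *Fam19a2* and *Rgs8* were lower, in both genotypes. For this comparison the 12 libraries in counts were scaled together, which makes the CPM differ a little from those above. Age and count table coincide here and cannot be told apart. Whether both ages shared a sequencing run is not given in the sources used here, so run and age cannot be told apart either. The P22 values also chose the genes, so these changes are a description with no test. Marker levels, scaled within each age, differed between these libraries too. In Bai1tm2b/+ libraries the summed neuron markers were 1678 to 3400 CPM at P7 and 14092 to 16000 CPM at P22. The summed hair cell markers were 591 to 973 CPM at P7 and 371 to 398 CPM at P22. The part of such shifts in the changes of the 5 genes was not tested. The median log2 change of 16314 genes was -0.058 in Bai1tm2b/+ and -0.042 in Bai1tm2b/tm2b cochleae.

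*Sec14l4* went from 0.133 CPM ± 0.0802 to 1.82 CPM ± 0.202 (SD, n = 3 each) in Bai1tm2b/+ cochleae, a log2 change of 3.78 (SE 0.435). In Bai1tm2b/tm2b cochleae it went from 0.134 CPM ± 0.0147 to 0.434 CPM ± 0.173, a log2 change of 1.67 (SE 0.464). *Mybpc2* went from 0.292 CPM ± 0.0861 to 3.69 CPM ± 0.525 in Bai1tm2b/+ cochleae (log2 change 3.65, SE 0.331) and from 0.383 CPM ± 0.152 to 0.823 CPM ± 0.0844 in Bai1tm2b/tm2b cochleae (log2 change 1.13, SE 0.333). *1700026D08Rik* went from 1.32 CPM ± 0.799 to 13.9 CPM ± 3.01 (log2 change 3.36, SE 0.366) and from 0.976 CPM ± 0.197 to 3.01 CPM ± 0.819 (log2 change 1.62, SE 0.378). The heterozygous changes of these 3 genes lay above those of 99.0% to 99.4% of genes, and the homozygous ones above 87.8% to 93.1%. In both genotypes all P22 libraries lay above all P7 libraries for the 3 genes, as they did in 37.2% of all genes in Bai1tm2b/+ and 36.2% in Bai1tm2b/tm2b cochleae.

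*Rgs8* went from 5.80 CPM ± 1.76 to 1.24 CPM ± 0.135 (SD, n = 3 each) in Bai1tm2b/+ cochleae, a log2 change of -2.22 (SE 0.229), and from 6.69 CPM ± 0.610 to 0.344 CPM ± 0.0331 in Bai1tm2b/tm2b cochleae, a log2 change of -4.27 (SE 0.265). *Fam19a2* went from 5.90 CPM ± 3.94 to 1.13 CPM ± 0.268 in Bai1tm2b/+ cochleae (log2 change -2.39, SE 0.516), where heterozygous P7 replicate 7 overlapped the P22 libraries. In Bai1tm2b/tm2b cochleae it went from 6.55 CPM ± 0.701 to 0.217 CPM ± 0.0686 (log2 change -4.89, SE 0.630). A more negative change than that of *Fam19a2* was found in 5.28% of genes in heterozygous and 0.785% in homozygous cochleae. For *Rgs8* these shares were 6.04% and 1.25%. The shares in both genotypes, here and for the 3 rising genes, rest on the P22 levels that chose the genes. All P22 libraries lay below all P7 libraries in 41.1% of genes in Bai1tm2b/+ and 37.8% in Bai1tm2b/tm2b cochleae. The homozygous change was the smaller upward change in 3 of the genes and the larger downward change in 2, which follows from the P22 difference that chose them.

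**Figure D4:**
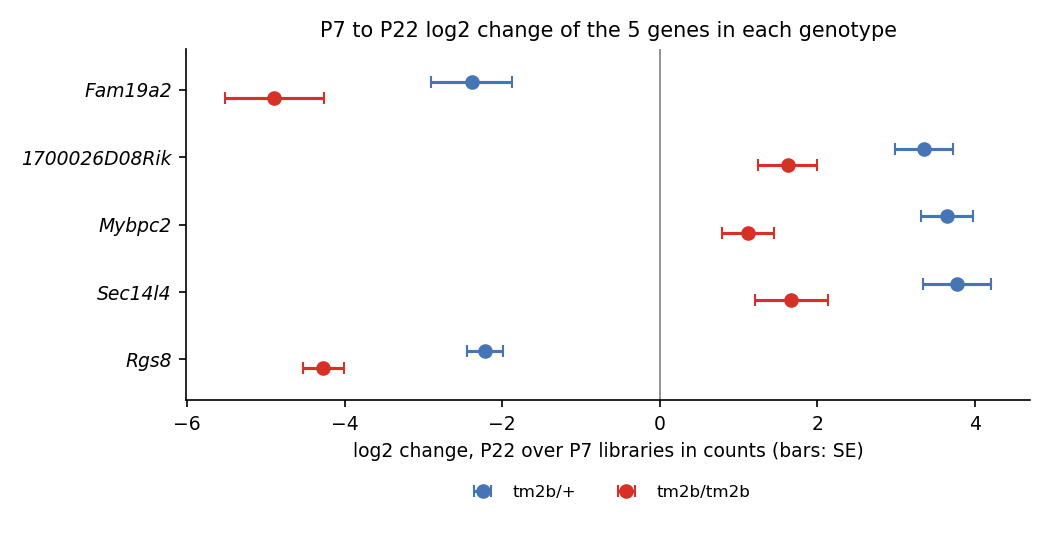
Log2 change from the P7 libraries in counts to the P22 libraries for the 5 genes, with bars of 1 SE, in Bai1tm2b/+ (blue) and Bai1tm2b/tm2b (red) cochleae, 3 libraries at each age. *1700026D08Rik*, *Mybpc2* and *Sec14l4* lie above 0 and *Fam19a2* and *Rgs8* below 0 in both genotypes.

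Per kilobase of exon sequence on the same joint scale, the order of the 5 genes differed between the ages in the libraries in counts. In P22 Bai1tm2b/+ cochleae *1700026D08Rik* led with 4.37 CPM per kb ± 0.945 (SD, n = 3), ahead of *Mybpc2* with 1.02 ± 0.146, *Sec14l4* with 0.521 ± 0.0581, *Fam19a2* with 0.240 ± 0.0571 and *Rgs8* with 0.129 ± 0.0140, and no neighbours in this order overlapped. In P22 Bai1tm2b/tm2b cochleae the order was the same, at 0.944 ± 0.257, 0.228 ± 0.0234, 0.124 ± 0.0497, 0.0462 ± 0.0146 and 0.0356 ± 0.00344 CPM per kb, and the libraries of *Fam19a2* and *Rgs8* overlapped. In P7 Bai1tm2b/+ replicates 5 to 7 *Fam19a2* led with 1.26 CPM per kb ± 0.841, followed by *Rgs8* with 0.602 ± 0.182 and *1700026D08Rik* with 0.416 ± 0.251, and these 3 overlapped. *Mybpc2*, with 0.0810 ± 0.0238, and *Sec14l4*, with 0.0381 ± 0.0230, came last. The rounded TPM of P7 Bai1tm2b/+ replicates 1 to 4 gave another order, with *1700026D08Rik* first as at P22. Its mean was 4 TPM (3 to 5), against 2.75 (2 to 5) for *Fam19a2* and 1.25 (1 to 2) for *Rgs8*. In CPM without regard to length, which sets the number of reads behind a value, 28.0% of tested genes had a lower P22 mean than *1700026D08Rik*, 14.8% than *Mybpc2*, 9.40% than *Sec14l4*, 6.88% than *Rgs8* and 5.76% than *Fam19a2*.

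The genes whose level followed each of the 5 most closely over the 12 libraries in counts were sought among 14534 genes with a mean of at least 1 CPM, by Pearson's r of log2(CPM + 1). The 12 points fall into 2 ages, and r carries the split between them along with the P22 genotype difference, so the values below are a description. For *Rgs8* these were *Fgf13* (r = 0.986), *Nrxn3* (0.985) and *Gramd2* (0.981), and for *Fam19a2* they were *Rgs8* itself (0.957), the perinatal myosin *Myh8* (0.948) and *Begain* (0.932). *Fgf13*, an intracellular regulator of sodium channels, and *Nrxn3*, a presynaptic adhesion protein, had P22 log2 fold changes of -1.01 (SE 0.296) and -0.87 (SE 0.190). For *Mybpc2* the 3 genes were *Esr2* (0.972), *5031414D18Rik* (0.963) and *Trak1* (0.961), and for *Sec14l4* they were *Mybpc2* (0.964), *Pdzd2* (0.961) and *Ttc17* (0.961). For *1700026D08Rik* they were *Ttc17* (0.978), *Stk24* (0.977) and *Sfxn3* (0.973). *Esr2*, the estrogen receptor beta, had a log2 fold change of -1.03 (SE 0.229) at P22.

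Relatives of the 5 genes were taken by family, and their counts are set beside the 3.15% of all genes called at P22 (1.74% higher and 1.41% lower). In lists this short, 0 or 1 call is near that background and says nothing particular about a family. Of 4 other TAFA genes tested, 0 were called. *Fam19a5*, by far the most abundant, had 159 CPM ± 9.35 against 162 CPM ± 9.44 (SD, n = 3 each, log2 fold change 0.020, SE 0.0647, adjusted p = 0.865, edgeR). *Fam19a1*, *Fam19a3* and *Fam19a4* had group means of 0.405 to 1.06 CPM, with log2 fold changes of 0.0051, -0.65 and 0.54 and overlapping libraries. The median of the 4 and that of all genes tested were both 0.013.

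Of 5 other R4 RGS genes tested (*Rgs2*, *Rgs3*, *Rgs4*, *Rgs5* and *Rgs16*), 0 were called, against 3.15% of all genes. *Rgs4* had a fitted log2 fold change of -1.83 (SE 0.628, adjusted p = 0.0837, edgeR) that rested on Bai1tm2b/+ library 2, with 44.2 CPM against 4.74 to 6.99 CPM in the other 5 libraries. The log2 fold changes of the other 4 ran from -0.34 (*Rgs5*, adjusted p = 0.0462) to 0.27 (*Rgs16*, the neighbor of *Rgs8*, adjusted p = 0.268). Of 11 RGS genes of other types, 1 was called lower, *Rgs7* (log2 fold change -0.59, SE 0.116, adjusted p = 0.0111, edgeR), a neuronal regulator of Go. The most abundant of them, *Rgs6* and *Rgs12*, had log2 fold changes of -0.30 and 0.0050. Of 9 G protein alpha and GIRK channel genes, the partners of RGS proteins, 1 was called lower, the GIRK subunit *Kcnj3*, with 21.7 CPM ± 1.99 against 14.2 CPM ± 1.12 (SD, n = 3 each, log2 fold change -0.61, SE 0.0963, adjusted p = 0.00474, edgeR). *Kcnj3* was already listed by the study as lower in these libraries, so its call is not independent evidence of a direction. *Gnai2* and *Gnai1*, the most abundant, had log2 fold changes of 0.16 and -0.071. The calls of *Rgs7* and *Kcnj3* were lost when libraries were scaled to neuron markers (-0.18 and -0.19), and that of *Rgs7* also without Bai1tm2b/tm2b library 2 (-0.48).

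Of 8 genes of the SEC14-like and CRAL-TRIO class, 0 were called, and the median log2 fold change was -0.019. *Sec14l1*, *Sec14l2* and *Sec14l5* had 0.0072, -0.16 and 0.18, and *Ttpa*, *Ttpal*, *Rlbp1*, *Clvs1* and *Clvs2* had 0.83, -0.046, 0.27, -0.21 and -0.20. Of the other myosin-binding proteins, *Mybpc1*, the slow form, had 21.2 CPM ± 1.69 against 22.9 CPM ± 2.81 (SD, n = 3 each, log2 fold change 0.11, SE 0.101, adjusted p = 0.504, edgeR). *Mybph*, at 0.119 against 0.312 CPM, had a log2 fold change of 1.37 (SE 0.534, adjusted p = 0.120).

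**Figure D5:**
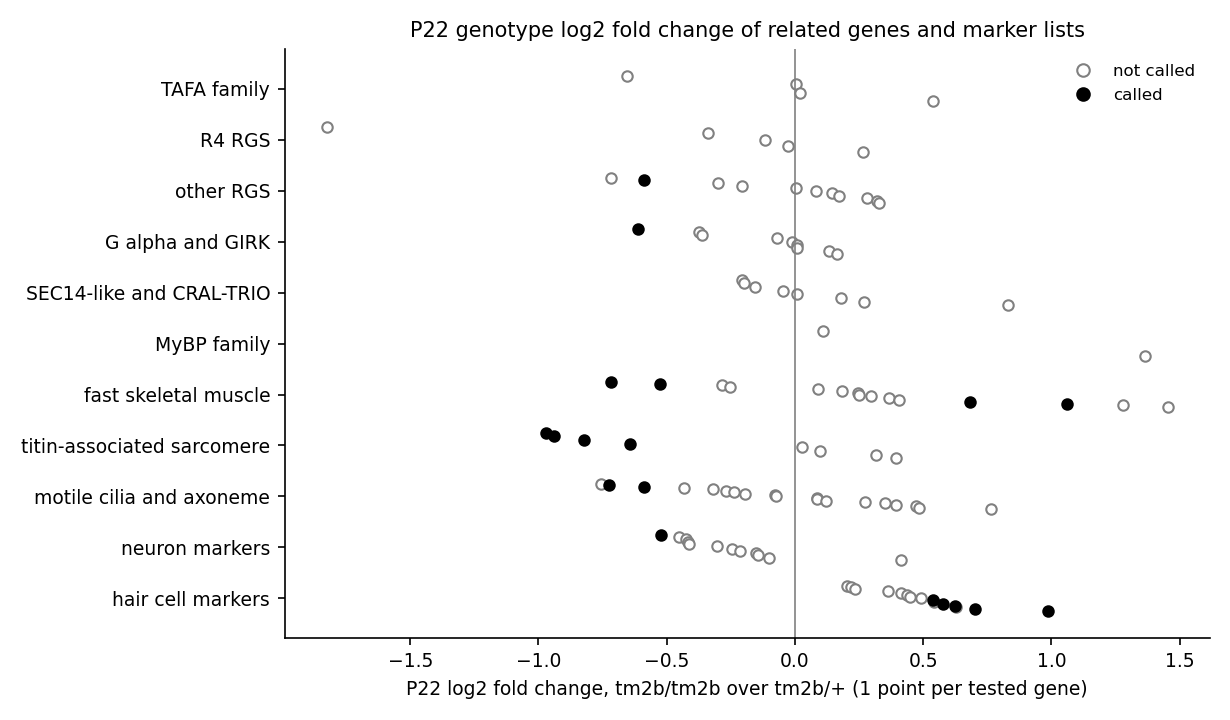
P22 log2 fold change of Bai1tm2b/tm2b over Bai1tm2b/+ for each tested gene of lists related to the 5 genes (which are not plotted) and of neuron and hair cell markers, filled where called. The TAFA, R4 RGS, SEC14-like and myosin-binding protein lists hold 0 called genes, and the titin-associated list holds 4 called lower of 8.

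Fast skeletal muscle genes were called in both directions at P22. Of 15 fast skeletal muscle genes tested, 2 were called higher (*Casq1*, 1.06, and *Actn2*, 0.68) and 2 lower (*Pygm*, -0.72, and *Neb*, -0.53), against 1.74% and 1.41% of all genes. The median was 0.25 against 0.013 in all genes. The study had listed *Pygm* among the genes lower in these libraries. With neuron scaling *Pygm* (-0.30) and *Neb* (-0.11) were no longer called, and *Neb* was also not called without Bai1tm2b/+ library 3 or Bai1tm2b/tm2b library 1 (-0.47 each). The call of *Actn2* was lost in 7 of the alternatives run, which include leaving out any 1 of the 6 libraries. Of the list, 8 genes were taken as defining fast fibers, a choice that was not part of the design. These genes, *Myh1*, *Myh2*, *Myh4*, *Acta1*, *Ckm*, *Tnnt3*, *Mylpf* and *Actn3*, ranged from 0 to 0.961 CPM over the 6 libraries, and *Myh2* was at 0 in 4 of them. Other genes of the list, named here after their values were seen, were higher or as low. *Tcap* had 18.1 against 21.5 CPM, *Eno3* 9.33 against 11.5 CPM, *Myl1* 4.33 against 3.56 CPM and *Tnni2* 0.199 against 0.492 CPM. The low values thus hold for the 8 genes and not for the whole list. *Pvalb*, a calcium buffer that neurons make as well, was the most abundant of the list, with a log2 fold change of -0.25 (SE 0.0625, adjusted p = 0.0279, edgeR), not past the fold threshold. *Pygm*, the muscle form of glycogen phosphorylase, had 92.0 CPM ± 3.44 against 56.0 CPM ± 4.49 (SD, n = 3 each), and *Casq1*, a calcium-binding protein of the sarcoplasmic reticulum, had 7.98 CPM ± 0.827 against 16.6 CPM ± 2.08.

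Of 8 tested genes for titin and its partners, 4 were called lower and 0 higher, against 1.41% and 1.74% of all genes, with a median log2 fold change of -0.31. The study itself had named *Ttn* and *Trim54* from these libraries, so the list is not independent evidence of a direction. *Ttn*, the giant spring protein of the sarcomere, had 14.7 CPM ± 1.35 against 7.49 CPM ± 1.38 (SD, n = 3 each, log2 fold change -0.97, SE 0.142, adjusted p = 0.00375, edgeR). *Ldb3*, a Z-disc protein, had 21.3 CPM ± 2.88 against 11.1 CPM ± 1.37 (log2 fold change -0.94, SE 0.123). *Trim54* and *Myom3* had log2 fold changes of -0.82 and -0.64. *Obsl1*, the most abundant of these 8 in CPM, had 30.3 CPM ± 2.48 against 32.4 CPM ± 2.25 (log2 fold change 0.098). With neuron scaling *Trim54* and *Myom3* were no longer called (-0.42 and -0.23). *Myom3* was also not called without Bai1tm2b/+ library 1 or 3 or Bai1tm2b/tm2b library 2 or 3 (adjusted p of 0.0854, 0.0623, 0.0645 and 0.0579, edgeR). At P7 0 genes of this list were called, and their median log2 fold change was 0.085.

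Around *1700026D08Rik*, 2 of 19 tested genes of motile cilia and the axoneme were called lower, against 1.41% of all genes, in a list added after the gene had been matched to *Cfap161*. *Foxj1*, the transcription factor of motile cilia, had 50.5 CPM ± 3.73 against 33.6 CPM ± 1.69 (SD, n = 3 each, log2 fold change -0.59, SE 0.0743, adjusted p = 0.00186, edgeR). *Hydin*, a protein of the central pair, had 5.07 CPM ± 0.931 against 3.06 CPM ± 0.738 (log2 fold change -0.72, SE 0.209, adjusted p = 0.0475). With neuron scaling neither was called (-0.18 and -0.30), and the call of *Hydin* was lost in 6 of the alternatives run, among them those without Bai1tm2b/+ library 1 or 3 or Bai1tm2b/tm2b library 1 or 3. *Drc1*, not called, had 4.07 CPM ± 0.545 against 5.36 CPM ± 1.17 (log2 fold change 0.40, SE 0.187, adjusted p = 0.193, edgeR). The median of the list was -0.075, and its summed level was 71.9 to 87.6 CPM against 59.6 to 61.3 CPM. *Foxj1* made up most of that sum.

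Among 10 markers of SGN subtypes 2 were called lower, *Calb2* (-0.54) and *Rxrg* (-0.59), against 1.41% of all genes. The study had named both genes as lower in these libraries, so the list is not independent evidence of a direction. Neither gene was called with neuron scaling (-0.13 and -0.18), nor *Calb2* without Bai1tm2b/tm2b library 3 (-0.48), and *Lypd1*, the second most abundant, had a log2 fold change of -0.15. Of 7 tested markers of brain and cerebellar neurons, where *Rgs8* is abundant in Purkinje cells, 0 were called, and the most abundant, *Itpr1* and *Cbln1*, had log2 fold changes of -0.14 and -0.13. The summed level of all 12 listed markers was 115 to 151 CPM in Bai1tm2b/+ and 112 to 132 CPM in Bai1tm2b/tm2b libraries. *Itpr1*, with means of 112 and 102 CPM, made up most of that sum. The defining markers *Pcp2*, *Neurod6*, *Tbr1*, *Gabra6* and *Slc32a1* ranged from 0 to 0.638 CPM, and *Pcp2*, the Purkinje cell marker, was at 0 in 3 of the 6 libraries. In P7 replicates 5 to 7, where *Rgs8* was higher than at P22, the sum of the brain marker list was 231 to 325 CPM in Bai1tm2b/+ and 280 to 326 CPM in Bai1tm2b/tm2b libraries, and the 5 defining markers reached 3.74 CPM. Most of this sum was again *Itpr1*, with means of 214 and 222 CPM. All homozygous libraries lay above all heterozygous ones for *Cbln1* (log2 fold change 1.96), *Slc32a1* (2.66), *Neurod6* (2.79) and *Gad2* (0.94), named here after their values were seen, each with an adjusted p of 0.894 in edgeR. No gene of any list was called in these libraries. The part of such RNA in the P7 values of *Rgs8* was not tested.

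Of the 10 nearest tested neighbors of the 5 genes on the chromosomes, 0 were called at P22, where 3.15% of all genes were, so that a count of 0 among 10 says nothing particular about them. *Fam71e1* and *Spib*, 213 and 1337 bp from *Mybpc2*, had log2 fold changes of -0.019 (SE 0.344) and 1.02 (SE 0.628), and *Rgs16*, 40.0 kb from *Rgs8*, had 0.27 (SE 0.149). *Npl*, on the other side of *Rgs8*, had 0.23, and *Il16* and *Cemip*, around *1700026D08Rik*, had -0.037 and 0.13. *Gal3st1* and *Mtfp1*, around *Sec14l4*, had 0.0078 and -0.29, the latter with an adjusted p of 0.0160 in edgeR but under the fold threshold. *Usp15* and *Slc16a7*, around *Fam19a2*, had -0.23 and 0.40.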

How the data were processed

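RNA-seq libraries from pools of mice were prepared by the authors with poly A enrichment and sequenced as paired-end reads, and reads were mapped to mm10 (nf-core pipeline) before gene counts were taken from Salmon. STAR, Salmon and DESeq2 are listed in the submitters' processing notes. The deposited values are estimated counts per gene without normalization (P22 and P7 replicates 5 to 7) and a score without decimals, whose sums per library resemble rounded TPM (P7 replicates 1 to 4, deposited in the same table). The design planned limma for P7 replicates 1 to 4 if they held rounded TPM, since a count test cannot be used on such values.

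Estimated counts were rounded. The edgeR 4.0.16 quasi-likelihood test (R 4.3.3) was run after TMM scaling on genes that passed filterByExpr. DESeq2 1.42.0 was an alternative. Rounded TPM were scaled by TMM and tested with limma 3.58.1 on log2(TPM + 1), where the mean reached 5. P values were adjusted by the Benjamini-Hochberg method. CPM are counts per 1e6. Single values were compared by exact 2-sided permutation tests. Steps were tested on simulated data. Intervals of count ratios are exact and cover counting error only. The pools are the replicates, and nothing says that they came from separate litters, so p values measure the spread between pools. No column was left unused.

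The 5 genes, the gene lists and the tests were chosen with earlier results of these data known. Genes named in the text are the 5 genes, tested genes of their families, called genes and the 2 genes of highest CPM in each other list, the called decreases ranked 6 to 8, the 3 genes most like each of the 5, their neighbors and *Adgrb1*. Also named are genes taken as defining markers of muscle and brain neurons, and genes marked as named after their values were seen. Same-numbered libraries did not deviate together (r from -0.23 to 0.08), so the replicate numbers were not used as pairs. The gene lists and their counts leave out 1 gene that is not reported here.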

Additional observations from a re-analysis of the deposited data

Results flagged for a closer look

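Among the 6 groups of 4 libraries in rounded TPM in which a gene of the 5 was not listed at 0 throughout, 3 held a library that stood apart from the other 3 by Dixon's criterion. *Fam19a2* was listed at 5 TPM in P7 Bai1tm2b/+ replicate 2 and at 2 TPM in the other 3 libraries. *Rgs8* was listed at 2 TPM in the same library and at 1 TPM in the other 3. *1700026D08Rik* was listed at 4 TPM in P7 Bai1tm2b/tm2b replicate 4 and at 3 TPM in the other 3. Chance flags about 1 in 20 groups, and values rounded to whole numbers are tied in 3 of 4 libraries in each case, which meets the criterion at any step of 1 TPM.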

How the results depend on the processing

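The number of genes called at P22 (487) was 227 at an adjusted p under 0.01 and 4762 with scaling to neuron markers, and 270 to 588 with a library left out. With that scaling the number called in the related gene lists was 45 in place of 20 (14 to 21 with a library left out). At P7, replicates 5 to 7 gave 48 calls with DESeq2 and 19 with neuron scaling in place of 0. Replicates 1 to 4 gave 90 calls, which became 44 with a pseudocount of 5, 293 without TMM scaling (284 higher and 9 lower, against 70 and 20, with the median of all genes higher by 0.11), 0 without the minimum of 5 TPM, 0 with the replicate block and 0 to 334 with a library left out. The joined fit of both P7 sets gave 0 to 1 calls with a library left out. With the replicate block, 261 genes were called higher and 205 lower at P22, and the calls of *Actn2* and *Hydin* were lost (adjusted p of 0.0605 and 0.0752, edgeR). It changed no other call of a gene named in the text. The causes were not tested.

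With neuron scaling the log2 fold changes of uncalled genes turned to 0.30 (*Rgs2*), 0.38 (*Rgs3*), 0.075 (*Rgs5*), 0.25 (*Sec14l2*), 0.37 (*Ttpal*), 0.21 (*Clvs1*) and 0.21 (*Clvs2*) at P22 and to 0.047 (*1700026D08Rik*) at P7. The replicate block gave -0.018 for *Fam19a1*. With 1 library left out, uncalled values changed sign within the ranges -0.30 to 0.32 (*Fam19a1*), -0.021 to 0.065 (*Fam19a5*), -0.084 to 0.034 (*Rgs3*), -0.042 to 0.055 (*Sec14l1*) and -0.081 to 0.0026 (*Ttpal*). At P7 these ranges were -0.30 to 0.51 (*Fam19a2*), -0.75 to 0.15 (*1700026D08Rik*) and, in rounded TPM, -0.020 to 0.22 (*Rgs8*). Called list genes lost their call in 39 of the refits, among them *Actn2* in 7 and *Hydin* in 6. The P22 values of the 5 genes chose them, so their direction in refits of the same libraries is no sign of stability.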
